A study of Mus musculus with 12 samples.

Results

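This section follows 40 genes of the endoplasmic reticulum (ER), the folding compartment of the secretory pathway, through the estrous cycle of the mouse uterus. They were taken as a fixed list of gene names: 11 folding chaperones and cochaperones, 6 disulfide isomerases, 6 stress sensors and transcription factors, 7 genes of ER-associated degradation, 4 genes downstream of the transcription factors ATF4 and CHOP, and 6 genes of the channel through which new proteins enter. All 40 were found among 35896 genes, and 37 of them were among the 12052 genes with enough counts to be tested. The other members, Derl3, Trib3 and Chac1, held 40, 37 and 40 estimated counts over all libraries.

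The samples were 12 whole uteri of wild-type Swiss Webster females, an outbred stock, aged 8 to 12 weeks, in 4 groups of 3 uteri, taken at proestrus, estrus, metestrus or diestrus. No group was treated or carried an engineered allele, and stage was the only factor in the labels. Libraries are named by stage and the number in their titles: 1 to 3 for proestrus, 3 to 5 for estrus and for diestrus, and 5 to 7 for metestrus. RNA was profiled with 3' TagSeq, which reads a stretch near the 3' end of polyadenylated transcripts, at 1652841 to 2200563 estimated counts per library.

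Secretory and membrane proteins enter the ER through the Sec61 channel, fold with the help of chaperones such as BiP (Hspa5) and of disulfide isomerases, and are pulled back out and destroyed by ER-associated degradation when folding fails. When unfolded proteins build up, the sensors IRE1 (Ern1), PERK (Eif2ak3) and ATF6 start the unfolded protein response, in which ATF6 and XBP1 raise chaperone and degradation genes, and ATF4 and CHOP (Ddit3) act downstream of PERK. The uterus makes secreted proteins in its epithelium and glands and lays down collagen in its stroma, both under ovarian hormones.

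Many of these genes carry a known stress-responsive sequence in the promoter, the ER stress element, written CCAAT, 9 bases, CCACG. In RefSeq windows of 300 bases (250 before and 50 after the start, GRCm38.p6), searched on both strands, 9 of the 34 members with a window held it (26.5%), against 13 of 9288 tested genes with a window (0.14%), 8 of them members. The 9 were Calr, Canx, Creld2, Derl3, Dnajc3, Hsp90b1, Hspa5, Pdia6 and Syvn1. The shorter second ER stress element (ATTGG, 1 base, CCACG) was found in Dnajb11 and Herpud1, in 0.0365% of all 32851 windows, and the XBP1-type element TGACGTGG in Txndc5, in 0.676% of all windows. No member window held TGATGNAAT, the ATF4 composite element, found in 0.965% of all windows. No 2 of these elements overlapped in a member window. The stretches printed here show the element in members that results below turn on, and in the chaperones for which the element is best known. Capitals mark the bases of the element. A stretch with the element on the opposite strand reads CGTGG, 9 bases, ATTGG. All are given 5′ to 3′ on the strand of the gene.
Hspa5: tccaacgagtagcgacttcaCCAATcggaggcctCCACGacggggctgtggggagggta
Calr: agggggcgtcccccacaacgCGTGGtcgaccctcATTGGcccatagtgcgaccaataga
Pdia6: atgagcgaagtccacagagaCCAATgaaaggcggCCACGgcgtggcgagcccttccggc
Dnajc3: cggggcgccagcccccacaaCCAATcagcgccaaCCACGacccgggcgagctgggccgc
Syvn1: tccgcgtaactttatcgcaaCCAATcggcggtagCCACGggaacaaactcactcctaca
Herpud1: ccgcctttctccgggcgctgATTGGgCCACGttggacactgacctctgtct
Txndc5: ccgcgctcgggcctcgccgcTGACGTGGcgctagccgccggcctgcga
These lie at chr2:34772005-34772063 (plus strand) for Hspa5, chr8:84847055-84847113 (minus) for Calr, chr12:17266471-17266529 (plus) for Pdia6, chr14:118937807-118937865 (plus) for Dnajc3, chr19:6046512-6046570 (plus) for Syvn1, chr8:94386357-94386407 (plus) for Herpud1 and chr13:38528025-38528072 (minus) for Txndc5. All 7 are upstream of the RefSeq start, and the element nearest to it was that of Syvn1, at 44 to 26 bases before the start. A match describes the letters of the window only. Of the 8 tested members with the first element, 1 (Pdia6) was called in the test over the stages described next.

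In an F test over the 4 stages, with edgeR's quasi-likelihood method and Benjamini-Hochberg adjustment, 3 of the 37 tested members had an adjusted p under 0.05, which is 8.11%, where 23.2% of all genes tested did. They were the disulfide isomerases Txndc5 (adjusted p = 0.0121) and Pdia6 (adjusted p = 0.0196) and the transcription factor gene Ddit3 (adjusted p = 0.0174). At an unadjusted p under 0.05, 14 members passed (37.8%), close to the 37.5% of all genes.

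Their stage means fell into a pattern nonetheless. The stage of the highest mean log2 CPM (CPM is the count of a gene as a share of its library, put on the same scale in every library) was proestrus for 18 of the 37 (48.6%) and estrus for 16 (43.2%), where 24.9% and 33.3% of all genes tested peaked there. Metestrus was the highest stage for 2 members, Hyou1 and Sec61a1, and diestrus for 1, Asns. Diestrus was the lowest stage for 22 members (59.5%), where 25.2% of all genes had their lowest mean there. Its place below metestrus depended on the scaling and on single libraries. The fitted difference in diestrus against metestrus was below 0 for 29 of the 37 members. That number was 19 with library totals in place of scaling factors, 20 without metestrus 7 and 31 without metestrus 5. By role, proestrus was highest for 8 of 11 chaperones, 4 of 6 isomerases and 4 of 6 channel genes, and estrus for 6 of 6 tested degradation genes and 4 of 6 sensors and transcription factors. These are counts of stage means, most of which did not differ in the test.

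**Figure D1:**
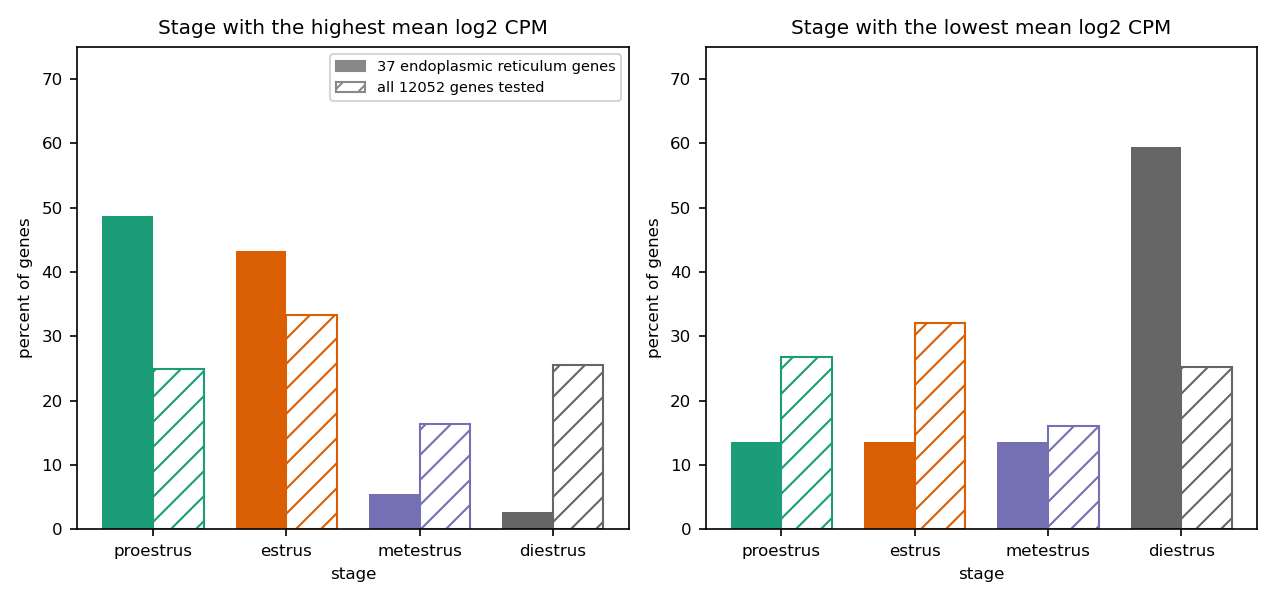
Share of genes (percent) whose mean log2 CPM was highest (left) or lowest (right) in each stage, for the 37 tested endoplasmic reticulum genes (filled) and all 12052 genes tested (hatched). Proestrus was highest for 48.6% and diestrus lowest for 59.5% of the 37 genes.

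Single libraries weighed on these means. Metestrus 5 was the lowest of the 12 libraries for 13 of the 37 members, and estrus 3 the highest for 10. Metestrus 5 also had the lowest summed CPM of 11 stromal and fibroblast markers, 7379, where the other libraries had 9811 to 15933. The part of cell composition in these values was not tested. In whole tissue, fewer cells of a type and less RNA per cell cannot be told apart.

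**Figure D2:**
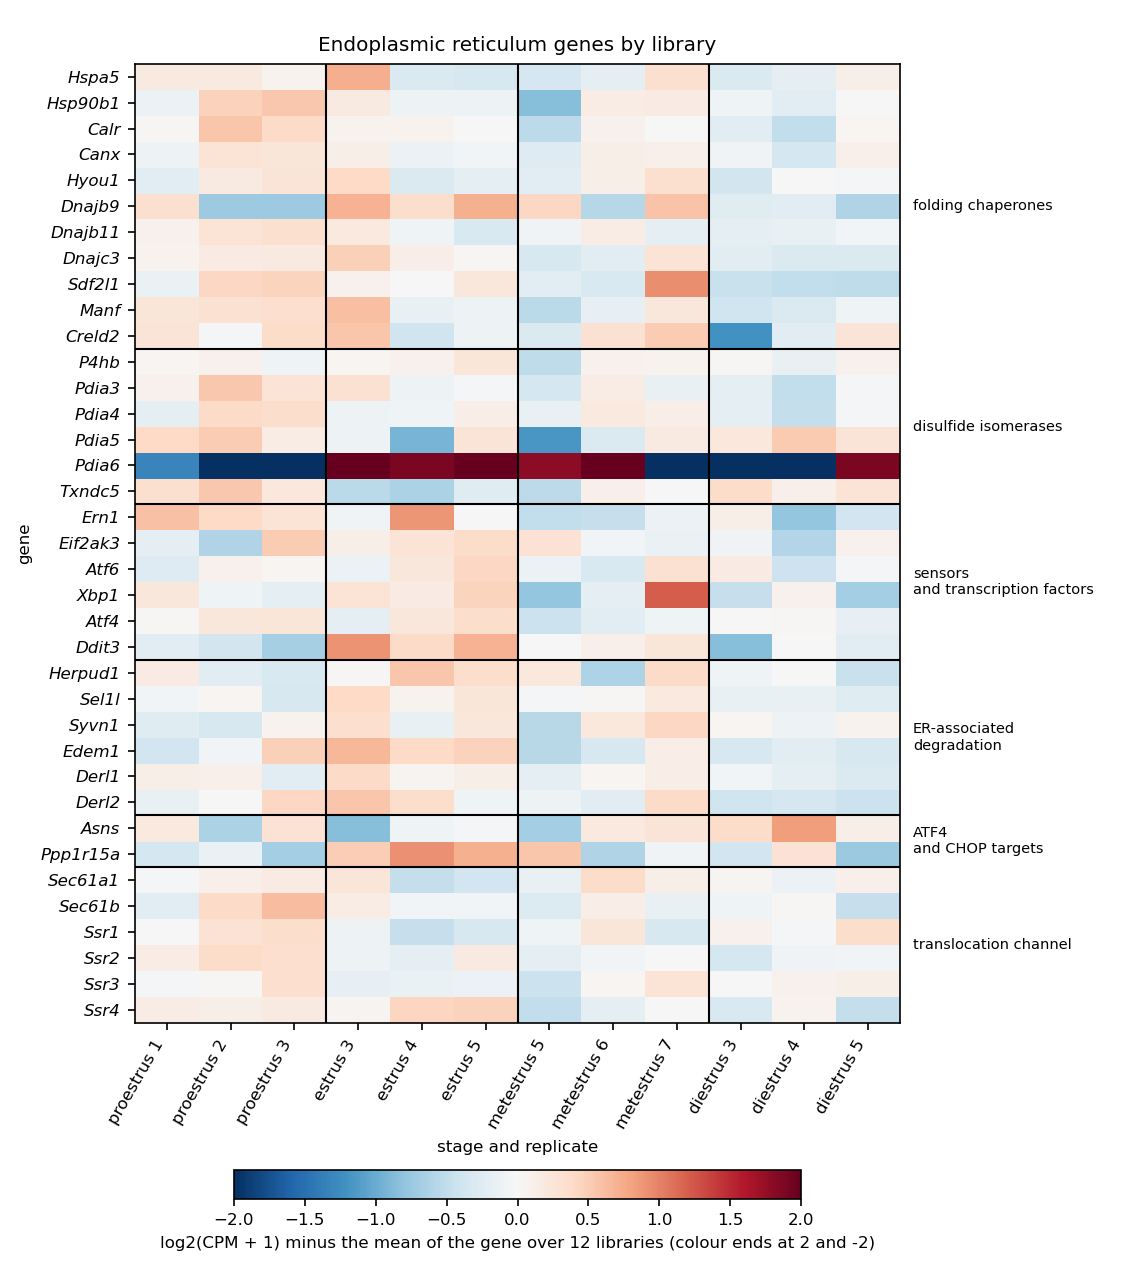
Each row is 1 of the 37 tested genes, grouped by role, and each column 1 of the 12 libraries; colour is log2(CPM + 1) minus the mean of the gene. Most rows stay within 1 unit of their mean, though the range from lowest to highest library can exceed 1 unit. Pdia6 switches between near 0 and at least 22 CPM, and metestrus 5 is blue in many rows.

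Estrus against proestrus was the first of the comparisons between successive stages. Of the 37 tested members, 4 were called (10.8%), where 17.1% of all genes tested were. The genes called higher in estrus were Pdia6, Ddit3 and Ppp1r15a, 3 members where 9.67% of all genes were called higher. The gene called lower was Txndc5, where 7.46% of all genes were called lower. The median log2 fold change of the members was -0.09, and that of all genes 0.02.

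Diestrus against estrus, which uses the same 3 estrus libraries, gave 8 members called (21.6%), close to the 22.8% of all genes. Txndc5 was higher in diestrus, where 9.72% of all genes were called higher. The 7 lower genes were Ddit3, Dnajb9, Dnajc3, Sel1l, Edem1, Derl2 and Ssr4, where 13.0% of all genes were called lower. The fitted difference was below 0 for 31 of the 37 members, with a median of -0.28, where 50.02% of all genes lay above 0 and their median was 0.00. Among the roles, the median was -0.55 for sensors and transcription factors, -0.47 for degradation genes, -0.26 for chaperones and 0.02 for channel genes.

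**Figure D3:**
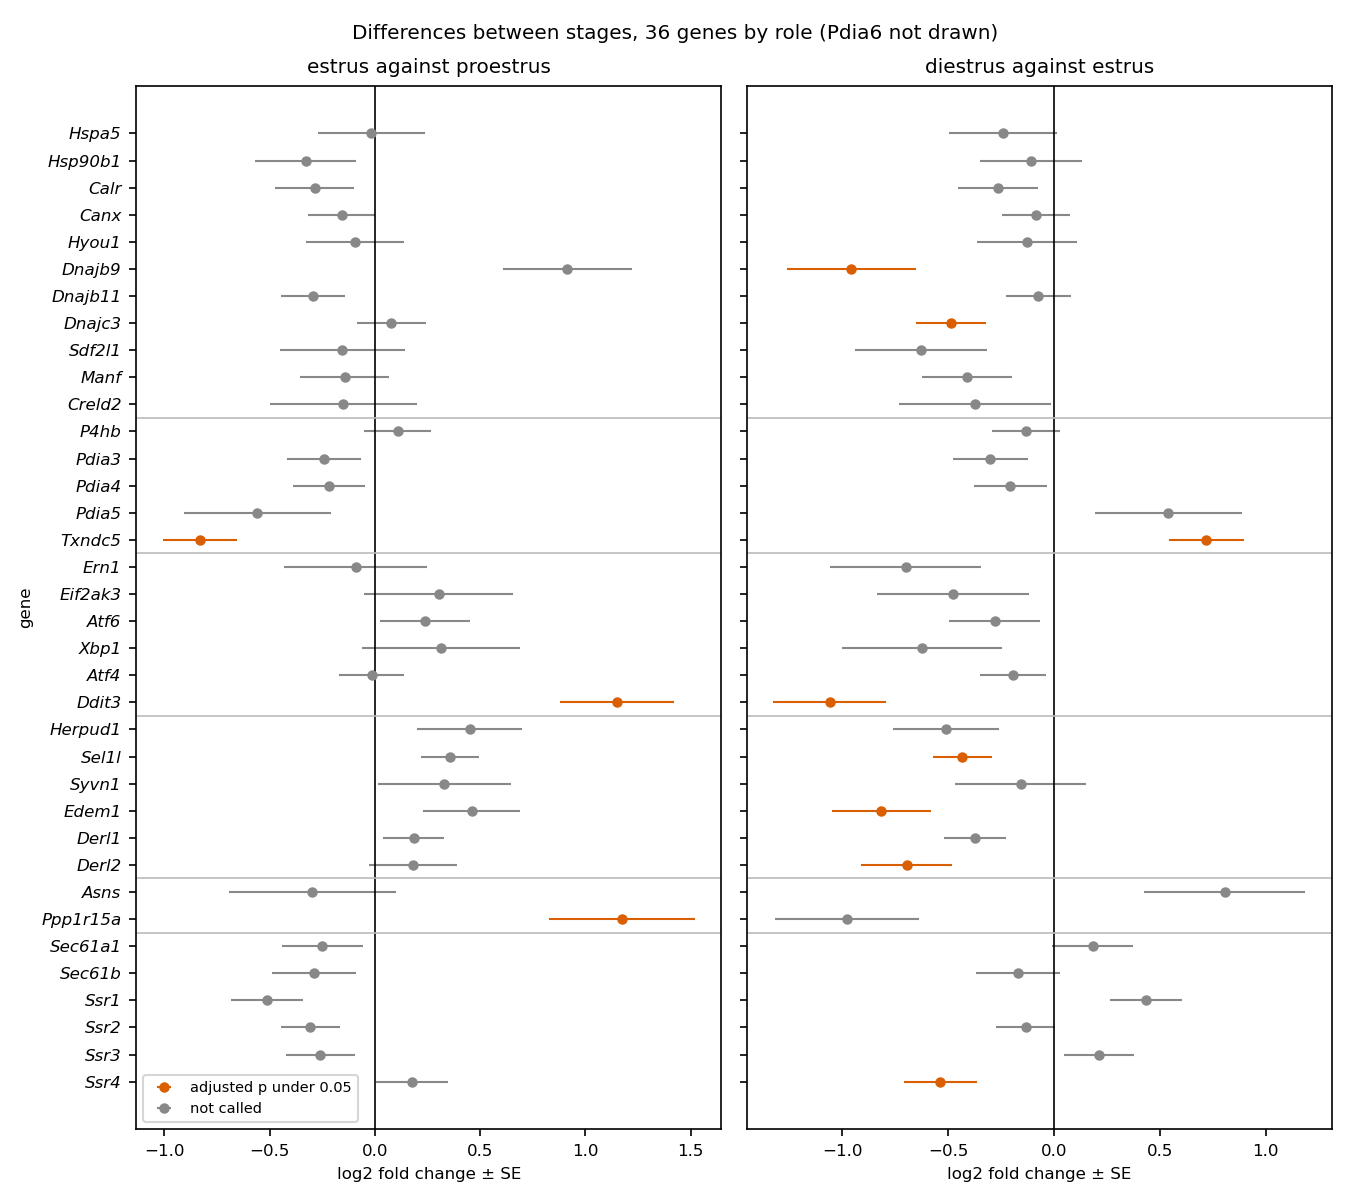
Log2 fold change ± SE of 36 tested genes by role, for estrus against proestrus (left) and diestrus against estrus (right); orange marks an adjusted p under 0.05. The 6 degradation genes, from Herpud1 to Derl2, lie above 0 on the left and below 0 on the right, and Txndc5 does the opposite; Pdia6 is not drawn.

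The other comparisons called no member in edgeR. In metestrus against estrus, where 7.56% of all genes were called, 4 members passed at an unadjusted p under 0.05, as did 23.4% of all genes. In diestrus against metestrus, where 0.224% of all genes were called, 2 members passed unadjusted, as did 11.3% of all genes. Metestrus against proestrus, with 4.31% of all genes called, had 7 members unadjusted, where 21.0% of all genes passed. DESeq2 also called 0 members in these comparisons and in proestrus against diestrus.

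Proestrus against diestrus also called 0 members where 8.53% of all genes were called, but 11 members passed at an unadjusted p under 0.05 (22.1% of all genes did), and all 11 were higher in proestrus. They were Calr, Dnajb11, Dnajc3, Sdf2l1, Manf, Pdia3, Pdia4, Ern1, Derl2, Sec61b and Ssr2. The fitted difference was above 0 for 32 of the 37 members (86.5%), with a median of 0.22, where 49.97% of all genes lay above 0. With 1 library left out at a time, 28 to 32 members lay above 0. The members were measured in the same libraries, so these signs are not separate observations. The summed CPM of the 40 members was 6778 to 8057 in proestrus and 5881 to 6797 in diestrus, so the groups overlapped. Without Sec61a1, the member with the highest CPM, the sums were 5041 to 6165 and 4263 to 4901. These did not overlap, but the gap depended on leaving out that 1 gene. Such sums are weighted to the most abundant members, and gaps in sums of other genes were not counted. In a fit of these 2 stages alone, 6 of 36 members were called, namely Calr, Dnajc3, Sdf2l1, Manf, Pdia3 and Ssr2. That count is not set against the share of all genes called in the same fit. It therefore does not show that members were called more often than other genes. The 95% interval of the difference lay within 1 log2 unit of 0 for 30 of the 37, so 2-fold differences between these stages were outside the interval for those genes.

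Txndc5 was the called member that lost no call in any setting run. It encodes ERp46, a disulfide isomerase with thioredoxin domains, and lies at chr13:38500079-38528824 (minus strand, GRCm38). Proestrus libraries held 109, 127 and 101 CPM and estrus libraries 59.4, 56.1 and 73.7. Metestrus libraries held 60.2, 93.4 and 87.0, and diestrus libraries 113, 93.9 and 106. Estrus thus lay below proestrus and diestrus with no overlap, and metestrus 5 lay within the estrus range. The stage means were 113 ± 13.2 (proestrus), 63.1 ± 9.40 (estrus), 80.2 ± 17.6 (metestrus) and 104 ± 9.49 CPM (diestrus), with the SD over 3 libraries. The log2 fold change was -0.83 ± 0.18 (SE) in estrus against proestrus (edgeR adjusted p = 0.00663) and 0.72 ± 0.18 in diestrus against estrus (edgeR adjusted p = 0.0100). Both calls held without any 1 of the 12 libraries and under every alternative run, with fold changes of -0.98 to -0.74 and 0.66 to 0.86. Of the 31-base words of its transcripts, 4.35% are shared with Bmp6, which overlaps it by 224 exonic bases on the opposite strand and held 64.4 estimated counts where Txndc5 held 1995.

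Besides Txndc5 and Pdia6, the isomerases were not called. P4hb encodes the classic protein disulfide isomerase, also a subunit of the collagen prolyl hydroxylase, and ranged from 231 to 391 CPM, with the lowest value in metestrus 5. Pdia3, which works with calnexin and calreticulin on glycoproteins, had 238 ± 37.8 CPM in proestrus and 164 ± 25.9 in diestrus (SD, n = 3), a log2 difference of 0.54 ± 0.18 (edgeR adjusted p = 0.0816). Pdia4 ranged from 117 to 211 CPM and Pdia5 from 5.71 to 20.8.

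Pdia6 encodes another isomerase (P5) and lies at chr12:17266545-17284770 (plus strand). Its libraries held 1.71, 0 and 0 CPM in proestrus, 52.6, 24.0 and 94.3 in estrus, 22.3, 27.1 and 0.596 in metestrus, and 0, 0 and 23.8 in diestrus. The values switched between near 0 and at least 22 CPM, also within metestrus and within diestrus. Estrus summed to 333 estimated counts and proestrus to 3, a ratio of 112 per scaled library (95% exact counting interval 37.9 to 544, for counting error only). The fitted log2 change was 6.57 ± 1.52 (edgeR adjusted p = 0.0107), and its size depends on the near-empty group.

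This result is uncertain. Of the Pdia6 counts, 98.4% were assigned to 1 protein-coding transcript, Pdia6-201, which the deposited tables list at 0 in 6 of the 12 libraries. The gene also overlaps Atp6v1c2 by 50 bases on the opposite strand, which held 17 counts. The call over the stages was lost without estrus 5 (edgeR adjusted p = 0.101), without proestrus 1, 2 or 3, and in DESeq2 (adjusted p = 0.281). The call in estrus against proestrus was lost without proestrus 3 (edgeR adjusted p = 0.0522).

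**Figure D4:**
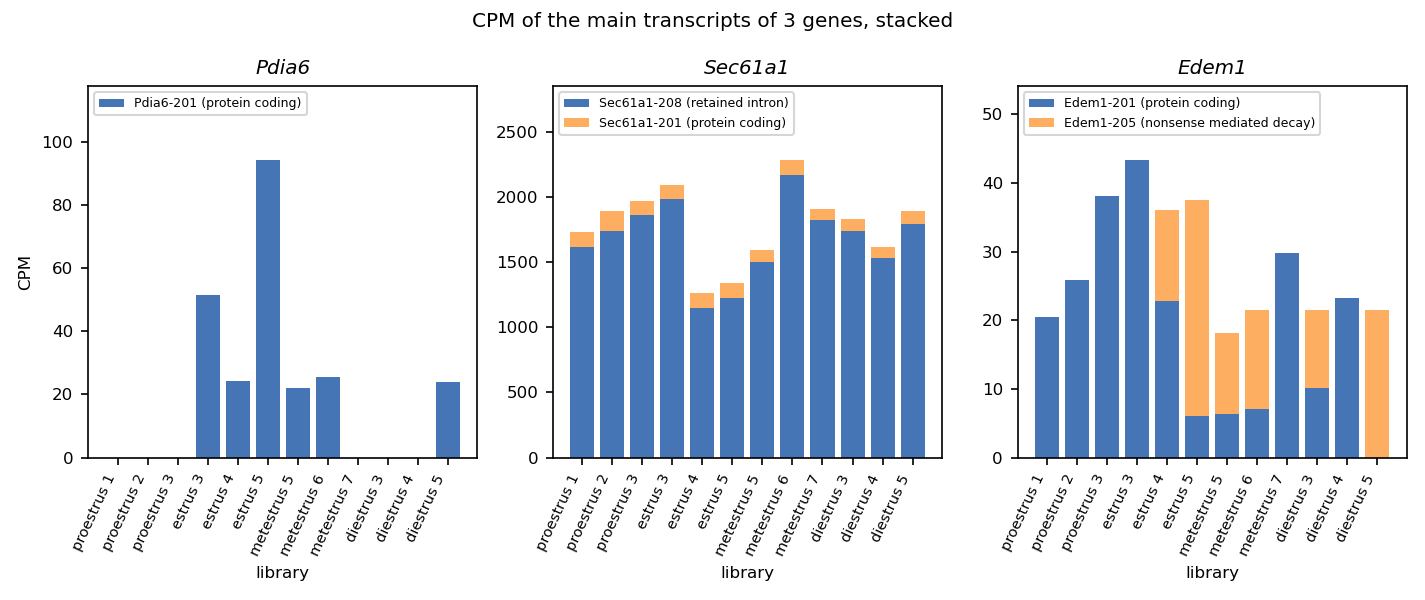
CPM per library of the main transcripts of Pdia6, Sec61a1 and Edem1, stacked, with the annotated transcript class in the key. Pdia6-201 is at 0 in 6 libraries, and Sec61a1 counts lie mostly on a retained-intron transcript. The split of estimated Edem1 counts between a protein-coding and a nonsense-mediated decay transcript varies by library.

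The sensors and transcription factors of the unfolded protein response were led by Ddit3, which encodes CHOP, a factor of late and prolonged ER stress. Proestrus libraries held 11.4, 10.2 and 8.12 CPM and estrus libraries 26.0, 17.7 and 22.4. Metestrus libraries held 13.5, 14.5 and 16.1, and diestrus libraries 6.98, 13.3 and 11.3. All estrus values lay above all others. The log2 fold change was 1.15 ± 0.27 in estrus against proestrus (edgeR adjusted p = 0.0116) and -1.06 ± 0.27 in diestrus against estrus (edgeR adjusted p = 0.0117). The first call was lost without proestrus 3 (edgeR adjusted p = 0.0566), and the second without diestrus 3 (edgeR adjusted p = 0.0528). The call over the stages was lost without estrus 3 (edgeR adjusted p = 0.0770) and without estrus 5. Ddit3 (chr10:127290774-127296288, plus strand) overlaps Mars by 68 exonic bases on the opposite strand. Mars, a methionyl-tRNA synthetase gene, held 568 counts and Ddit3 314, and no source used here states whether strand was used in counting. The sum of both, in which Mars outweighs Ddit3, differed by -0.15 between estrus and proestrus (edgeR adjusted p = 0.621). Whether reads of one were counted for the other was not tested.

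The genes upstream of CHOP were not called. Atf4, which encodes the factor that induces CHOP, ranged from 61.7 to 108 CPM, and its estrus against proestrus interval ran from -0.35 to 0.32 log2 units. Ern1 (4.94 to 17.7 CPM) and Eif2ak3 (4.85 to 11.7 CPM), which encode the IRE1 and PERK sensors, were low, so their intervals were wide, for Eif2ak3 from -0.46 to 1.07. Atf6 ranged from 25.7 to 46.3 CPM.

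Xbp1 encodes the factor made after IRE1 splices its mRNA, and that splicing was not measured here. Its libraries held 118, 94.9 and 88.3 CPM in proestrus, 122, 114 and 138 in estrus, 58.6, 87.7 and 235 in metestrus, and 72.8, 107 and 62.8 in diestrus. The metestrus libraries spanned both the lowest and the highest value, 58.6 and 235. All estrus values lay above all diestrus values, but the shared spread was wide, and the log2 difference of -0.62 ± 0.38 was not called (edgeR adjusted p = 0.258). In fits of estrus and diestrus alone, without the metestrus libraries, its adjusted p was 0.0283 (edgeR). Metestrus 7, the library with 235, also held the highest value of Sdf2l1. Its summed CPM of 10 uterine gland markers was the highest too, 1442, where the others held 476 to 1068. Not every gland marker was high there. Aldh1a1, Cxcl15 and Sox9 held 8.94, 2.98 and 63.2 CPM in metestrus 7, and reached 66.2 in proestrus 1, 41.9 in diestrus 3 and 89.8 in estrus 4. The sum therefore does not show that gland markers were high as a set. The part of gland content in these values was not tested.

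Of the 4 genes downstream of ATF4 and CHOP, Ppp1r15a was called. It encodes GADD34, which directs the phosphatase that reverses the PERK block on translation. Proestrus libraries held 9.13, 10.8 and 7.10 CPM, estrus 17.3, 23.5 and 20.2, metestrus 18.2, 7.57 and 11.3, and diestrus 8.97, 14.8 and 6.79. Estrus did not overlap proestrus or diestrus, while metestrus 5 lay within the estrus range. The log2 fold change was 1.17 ± 0.35 in estrus against proestrus (edgeR adjusted p = 0.0338) and -0.98 ± 0.34 in diestrus against estrus (edgeR adjusted p = 0.0522), which missed the threshold. The first call was lost without any 1 of the 6 proestrus and estrus libraries, with adjusted p up to 0.125 (edgeR), and with counts scaled from TPM (edgeR adjusted p = 0.101). Asns, the asparagine synthetase gene and an ATF4 target, ranged from 4.94 to 18.3 CPM and was not called. Trib3, a pseudokinase gene that CHOP induces, and Chac1, a glutathione-degrading enzyme gene, reached 6.29 and 5.15 CPM in their highest library, estrus 4 for both. Trib3 was at 0 in proestrus 3, diestrus 4 and diestrus 5, and Chac1 in metestrus 6 and diestrus 4. Estrus 3 held 0.619 CPM of Trib3 and 1.86 of Chac1, so estrus was not uniformly high.

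ER-associated degradation was the role with the most calls in 1 comparison. Edem1, Sel1l and Derl2, 3 of the 6 tested genes, were called lower in diestrus than in estrus, where 13.0% of all genes were called lower. All 6 had fitted differences below 0. The summed CPM of the 7 genes was 282 ± 5.40 in proestrus, 347 ± 29.2 in estrus, 290 ± 40.2 in metestrus and 245 ± 13.6 in diestrus (SD, n = 3). By library, estrus held 381, 332 and 329, and diestrus 255, 251 and 230, with no overlap.

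Sel1l encodes the adaptor that holds the HRD1 ubiquitin ligase complex together. Its estrus libraries held 99.6, 79.5 and 89.8 CPM and its diestrus libraries 67.8, 67.7 and 63.4. Proestrus held 72.4, 77.6 and 59.9, and metestrus 73.1, 76.4 and 86.4. Diestrus lay below estrus with no overlap, and the log2 fold change was -0.43 ± 0.14 (edgeR adjusted p = 0.0382). This call was lost without any 1 of 7 libraries (proestrus 1 and the 6 of estrus and diestrus), with adjusted p up to 0.132 (edgeR), and under 6 of 10 other settings, DESeq2 among them.

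Derl2 encodes a derlin, a membrane protein of the retrotranslocation step. Its estrus libraries held 65.0, 56.6 and 41.2 CPM, and its diestrus libraries 32.9, 34.6 and 32.3. Proestrus held 39.4, 44.2 and 58.9, and metestrus 41.0, 37.9 and 57.8. The diestrus libraries were the 3 lowest of the 12, and the log2 fold change was -0.70 ± 0.22 against estrus (edgeR adjusted p = 0.0322). The call was lost without estrus 3 or 4, without any 1 diestrus library (adjusted p up to 0.124, edgeR), and when counts were summed with those of Mis12, which overlaps it on the opposite strand (edgeR adjusted p = 0.0695).

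Edem1 encodes a lectin-like protein that marks misfolded glycoproteins for removal. Estrus libraries held 43.3, 36.03 and 37.6 CPM, and diestrus libraries 21.4, 23.2 and 21.5. Proestrus held 20.5, 25.9 and 38.1, and metestrus 18.2, 21.5 and 29.8. Estrus did not overlap diestrus, and the log2 fold change was -0.82 ± 0.23 (edgeR adjusted p = 0.0224). The call was lost without any 1 of the 6 estrus and diestrus libraries, with adjusted p up to 0.0732 (edgeR), and with counts scaled from TPM. Of its estimated counts, 31.9% were assigned to Edem1-205, annotated as a nonsense-mediated decay transcript. With protein-coding transcripts alone the call was also lost (edgeR adjusted p = 0.426). Whether the assay can separate the transcripts was not tested.

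The other degradation genes were not called. Herpud1, a stress-induced membrane partner of the HRD1 complex, had 38.3 ± 7.15 CPM in estrus and 26.9 ± 4.25 in diestrus (SD, n = 3), a log2 difference of -0.51 ± 0.25 (edgeR adjusted p = 0.160). Derl1 had 112 ± 14.3 in estrus and 86.7 ± 7.23 in diestrus, and its adjusted p was 0.0840 (edgeR). Syvn1, the gene of the HRD1 ligase itself, ranged from 6.22 to 13.1 CPM, and it overlaps Mrpl49 by 91 bases on the opposite strand. Mrpl49 held 777 counts and Syvn1 216, and their sum differed by -0.49 in estrus against proestrus (edgeR adjusted p = 0.0381), where Syvn1 alone differed by 0.33. Derl3 was below the filter and reached 5.71 CPM, in metestrus 5.

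Of the 11 chaperone genes, 2 were called in 1 comparison, diestrus against estrus, where 22.8% of all genes were called. Dnajb9 (ERdj4), a J-domain cochaperone of BiP, held 66.8, 52.6 and 67.8 CPM in estrus and 34.4, 35.1 and 26.6 in diestrus. It held 51.3, 24.3 and 24.4 in proestrus, and 54.5, 27.1 and 60.8 in metestrus. Estrus did not overlap diestrus or proestrus, and the log2 fold change was -0.96 ± 0.31 in diestrus against estrus (edgeR adjusted p = 0.0368). The estrus against proestrus difference was 0.91 ± 0.31 and missed the threshold (edgeR adjusted p = 0.0556). The call was lost without any 1 of the 6 estrus and diestrus libraries, with adjusted p up to 0.122 (edgeR), and without scaling factors (edgeR adjusted p = 0.0516). Dnajb9 shares 10.8% of its 31-base words with Gm6568.

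Dnajc3 encodes p58IPK, a J-domain cochaperone and inhibitor of PERK. It held 189.9, 150.4 and 139 CPM in estrus and 118, 112 and 112 in diestrus. It held 144, 154 and 156 in proestrus, and 109, 117 and 166 in metestrus. Proestrus and estrus both lay above diestrus with no overlap. The log2 fold change was -0.49 ± 0.16 in diestrus against estrus (edgeR adjusted p = 0.0466). The call was lost without any 1 of 9 libraries, with adjusted p up to 0.182 without estrus 3 (edgeR), and under 5 of 10 other settings, DESeq2 among them.

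The central chaperones were not called in any comparison. Hspa5 held 583, 589 and 546 CPM in proestrus, 859, 423 and 416 in estrus, 408, 456 and 649 in metestrus, and 421, 453 and 561 in diestrus. Estrus 3 alone carried the high end, at 859, and the other estrus libraries lay among the lowest. The 95% interval of estrus against proestrus ran from -0.56 to 0.53 log2 units. Estrus 3 was also the highest library for Manf, at 203 CPM, and for Creld2, at 29.7, both secreted proteins induced by ER stress, and for Hyou1, at 34.6, the gene of a BiP nucleotide exchange factor.

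Calr encodes calreticulin, a lectin chaperone of glycoproteins. It had 1016 ± 186 CPM in proestrus, 833 ± 18.5 in estrus, 740.1 ± 158 in metestrus and 694 ± 124 in diestrus (SD, n = 3). The proestrus against diestrus difference was 0.55 ± 0.19 log2 units (edgeR adjusted p = 0.0955). Manf had 165 ± 5.05 in proestrus and 112 ± 12.8 in diestrus, a difference of 0.55 ± 0.21 (edgeR adjusted p = 0.138). Sdf2l1, a partner of the cochaperone Dnajb11, had 26.7 ± 5.84 and 15.5 ± 0.376, a difference of 0.78 ± 0.31 (edgeR adjusted p = 0.148). Canx, the membrane-bound relative of calreticulin, ranged from 298 to 461 CPM, Dnajb11 from 44.9 to 70.03, and Hsp90b1, the ER member of the HSP90 family, from 393 to 1038. In Hsp90b1, 67.7% of counts were on a retained-intron transcript, and the gene overlaps 1810014B01Rik on the opposite strand.

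**Figure D5:**
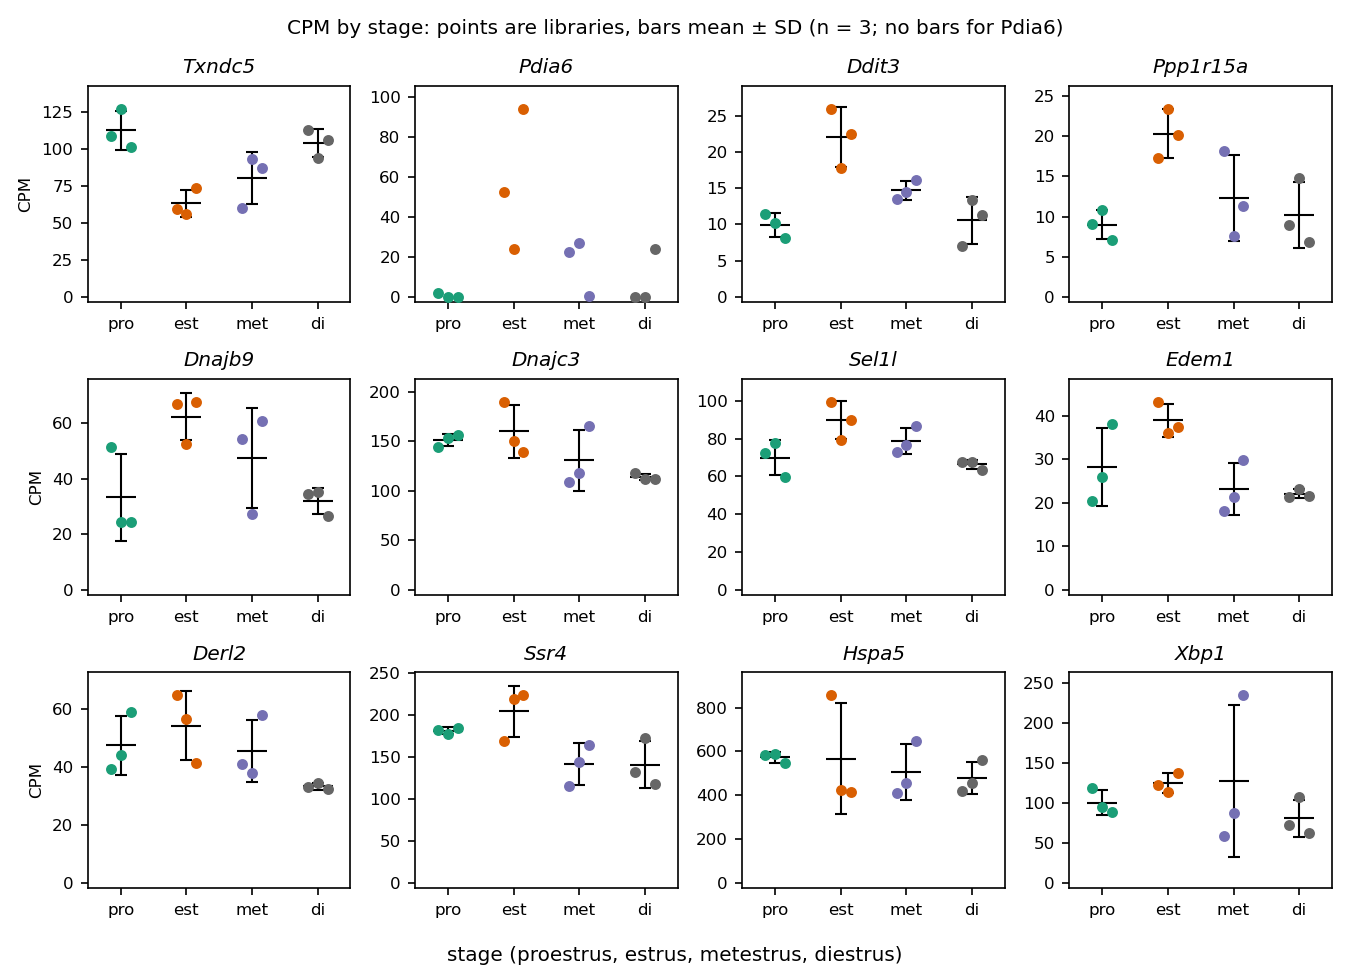
CPM by library (points) with mean ± SD (n = 3) for the 10 members called in a comparison, and for Hspa5 and Xbp1. Txndc5 is lowest in estrus, Ddit3 and Ppp1r15a are highest there, diestrus libraries sit close together at the low end for Dnajc3, Edem1, Derl2 and Sel1l, and single libraries stand out for Hspa5 (estrus 3) and Xbp1 (metestrus 7).

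The 6 channel genes had 1 call, in diestrus against estrus, where 22.8% of all genes were called. Ssr4, a subunit of the translocon-associated TRAP complex, held 169, 219.6 and 224 CPM in estrus and 133, 173 and 118 in diestrus. It held 182, 177 and 185 in proestrus, and 116, 145 and 165 in metestrus. Diestrus 4, at 173, lay above estrus 3, at 169, so the groups overlapped, and the log2 fold change was -0.54 ± 0.17 (edgeR adjusted p = 0.0375). The call was lost without any 1 of 7 libraries, with adjusted p up to 0.146 without diestrus 5 (edgeR), without scaling factors (edgeR adjusted p = 0.0580), and with no filter on low counts.

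The partners of Ssr4 in the TRAP complex were not called in the edgeR fit to all 12 libraries. Ssr1 had 208 ± 26.8 CPM in proestrus, 146 ± 18.8 in estrus, 173 ± 34.3 in metestrus and 197 ± 26.9 in diestrus (SD, n = 3), lowest in estrus, where Ssr4 had its highest mean. Its difference was -0.51 ± 0.17 in estrus against proestrus (edgeR adjusted p = 0.0537), just outside the threshold. It was inside the threshold in DESeq2 (adjusted p = 0.0397), with no filter, with a minimum mean of 50 counts, with the 2 stages alone, and without metestrus 6 or 7 (adjusted p of 0.0137 to 0.0356 in edgeR). In diestrus against estrus it was called in 4 of these settings (edgeR adjusted p of 0.0397 to 0.0493), and not in the fit to all 12 libraries (edgeR adjusted p = 0.0823). Ssr2 had 137 ± 11.1 in proestrus and 101 ± 11.6 in diestrus (edgeR adjusted p = 0.0688), and 15.0% of its 31-base words are shared, mostly with Rtraf. Ssr3 ranged from 97.5 to 166 CPM. Sec61b, a small subunit of the channel, ranged from 131 to 276 CPM and shares 23.5% of its words, mostly with Gm10320.

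Sec61a1, the gene of the channel pore, ranged from 1269 to 2282 CPM. Of its counts, 93.8% lay on Sec61a1-208, annotated as a retained-intron transcript, and 6.08% on the protein-coding Sec61a1-201, which held 84.0 to 148 CPM. The gene value is therefore mostly a value of that transcript. Neither the gene nor its protein-coding transcripts alone were called in any comparison.

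The rest of the pathway was covered by lists of other genes, to be read against the 23.2% of all genes called over the stages. Among 18 further genes of translocation and signal peptide removal, 4 were called over the stages, near that share. In estrus against proestrus 2 were called lower, Sec61g and Srp19. Sec63, which couples the channel to BiP, was called over the stages and was not one of these 2. It had 184 ± 6.73 CPM in estrus and 121 ± 10.02 in diestrus (SD, n = 3, edgeR adjusted p = 0.00234). Of 14 genes of N-glycosylation and glycoprotein folding, 1 was called, Uggt1, the folding sensor that sends glycoproteins back to calnexin, at 60.6 CPM in estrus and 37.5 in diestrus (edgeR adjusted p = 0.00643). Of 21 degradation genes outside the members, 2 were called over the stages, Erlin2 and Os9. Os9, a lectin of the HRD1 complex, had 79.7 CPM in proestrus and 131 in estrus (edgeR adjusted p = 0.0117). In estrus against proestrus 1 gene of this list was called higher and 2 lower. The median log2 fold change of the list was 0.06 there and -0.09 in diestrus against estrus. Its mean summed CPM was 1388 in proestrus, 1461 in estrus, 1443 in metestrus and 1411 in diestrus.

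Of 21 oxidoreductases and prolyl isomerases outside the members, 7 were called. Ero1l, the oxidase that recharges protein disulfide isomerase, had 18.5 CPM in proestrus, 100.5 in estrus, 20.7 in metestrus and 16.3 in diestrus. Its log2 fold change of 2.43 in estrus against proestrus was past the threshold in edgeR. Serpinh1, the collagen chaperone HSP47, and Fkbp14, a prolyl isomerase that acts on collagen, were lowest in estrus, like Txndc5, with Serpinh1 at 506 CPM in proestrus, 216 in estrus and 490.0 in diestrus. Of 27 genes of ER to Golgi transport, 6 were called, near the share of all genes, among them Kdelr3, a receptor that returns ER proteins, at 34.8 CPM in proestrus and 10.5 in estrus.

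Of 17 tested sensors and regulators outside the members, 7 were called over the stages. In the contrast of diestrus against estrus, 5 were called lower. Nupr1, a stress-induced regulator, had 19.4 CPM in proestrus, 68.0 in estrus, 34.4 in metestrus and 17.0 in diestrus, and Cebpb, which encodes a dimer partner of CHOP, 137 in estrus and 37.6 in diestrus. Ern2, the epithelial relative of Ern1, was at 0 in every library. Of 20 tested amino acid genes linked to ATF4, 10 were called over the stages. In the contrast of estrus against proestrus, 7 were called lower and 1 higher, so the list did not follow Ddit3. Stc2, a stress-induced secreted glycoprotein gene, was the higher one, at 31.7 and 59.9 CPM, and Phgdh, of serine synthesis, fell from 13.5 to 5.18. Among 20 cytosolic and mitochondrial chaperones, 7 were called over the stages. In the separate contrast of estrus against proestrus, 7 were called lower and 1 higher. The lower ones included Hspe1 (303 CPM in proestrus and 146 in estrus) and Hspd1 (165 and 101).

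Markers of the cell types in the tissue also differed between stages. All 13 epithelial markers were called over the stages and 11 of 13 were lower in diestrus than in estrus, the direction of 7 members; their summed CPM was 1916 to 2606 in proestrus, 1787 to 2212 in estrus, 785 to 1411 in metestrus and 740.0 to 931 in diestrus. Of 11 stromal and fibroblast markers 6 were called over the stages. In estrus against proestrus 4 were lower, the direction of Txndc5, and 1 was higher, Pdgfra (46.2 and 135 CPM). In diestrus against estrus 3 were called higher and 1 lower. Their sums were 14273 to 14574 in proestrus, 11238 to 11757 in estrus, 7379 to 15933 in metestrus and 9811 to 13463 in diestrus. The mean sum was 11414 in estrus and 11764 in diestrus, where Txndc5 had 63.1 and 104 CPM. Of 11 tested neutrophil and macrophage markers 7 were called, all higher in estrus than in proestrus, the direction of Ddit3 and Ppp1r15a. Their sums were 300.04 to 335 in proestrus, 706 to 837 in estrus, 436 to 771 in metestrus and 438 to 675 in diestrus. The mean sum was 321 in proestrus and 567 in diestrus, where Ddit3 had 9.92 and 10.5 CPM. Smooth muscle markers of the myometrium had 5 of 9 called, with sums of 8816 to 11334 in estrus and 6547 to 6941 in diestrus. Uterine gland markers had 5 of 6 tested called and plasma cell markers 2 of 6, the latter with sums of 170.4 to 557 in every library but estrus 5, which held 2571. No marker of epithelium, glands, stroma, muscle, blood cells or plasma cells was at 0 throughout. Of 10 ovary and oviduct markers, 3 were tested, 2 were called, and Zp3 was at 0, with sums of 57.3 to 135. The part of cell composition in the members' differences was not tested.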

How the data were processed

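The authors deposited 1 table per library, with estimated counts for 119414 transcripts, in the column format of kallisto; the submitters' processing notes name FastQC, kallisto and DESeq2. The deposited TPM values, the authors' own, served 1 alternative. The genome build, transcript set and use of strand are not given in the sources used here. Transcripts were matched without version to GENCODE M21 (GRCm38): 116640 (97.7%) matched, and the rest held 0.619% to 0.774% of each library and stayed out. Estimated counts were summed per gene and rounded. After filterByExpr by stage and TMM scaling (0.908 to 1.05), edgeR 4.0.16 (R 4.3.3) fitted quasi-likelihood models with 1 coefficient per stage to all 12 libraries. An F test and 6 two-sided contrasts were adjusted by Benjamini-Hochberg over 12052 genes, with a call at an adjusted p under 0.05. The model was tested on simulated data. Alternatives were other scalings, filters, DESeq2 1.42.0, counts scaled from TPM, sums with overlapping genes, 2 stages alone, a replicate block, libraries left out in turn and, added after seeing the data, protein-coding transcripts alone. The members and lists were chosen with earlier results of these data known. Members called in the F test are given in every library, at most 3 genes per list by smallest p, and the other members by range or counts; members called in a contrast, Hspa5 and Xbp1 were given in full after their values were seen. Uniquely tagged molecules were not described, so counts may include PCR copies. Separate uteri are the replicates. Promoter windows were RefSeq's.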

Additional observations from a re-analysis of the deposited data

How the results depend on the processing

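The counts of called members moved with several choices. Over the 4 stages, 3 members were called; leaving out 1 library at a time gave counts of 1 to 7, other members included (1 without estrus 5, 5 without diestrus 4, 6 without metestrus 6, 7 without metestrus 7), and no filter gave 5. In estrus against proestrus 4 were called, and leaving out libraries gave 1 to 6 (1 without proestrus 3), and a minimum mean of 50 counts gave 2 among 26 members tested. In diestrus against estrus 8 were called, and leaving out libraries gave 1 to 12 (5 without proestrus 1, 3 without estrus 3, 2 without estrus 4, 4 without estrus 5, 1 without diestrus 3, 4 without diestrus 4, 3 without diestrus 5), library totals 4, counts scaled from TPM 5, the 2 stages alone 13, and protein-coding transcripts alone, an alternative added after seeing the data, 5. Proestrus against diestrus gave 6 with the 2 stages alone and 0 to 1 with libraries left out (1 without proestrus 1, metestrus 5 or metestrus 7). Metestrus against estrus gave 0 to 1 (1 without proestrus 3 or metestrus 7), and metestrus against proestrus gave 0 with libraries left out and 1 without a filter. Diestrus against metestrus gave 0 throughout. The cause was not tested. These member counts are not set against the share of all genes called in each setting. They therefore do not show that the members moved more than all genes did. The Ddit3 difference between estrus and proestrus was 1.02 to 1.26 in every setting that counted Ddit3 by itself. The sum with the genes that overlap it, in which Mars outweighs Ddit3, differed by -0.15, and that of Syvn1 with Mrpl49 by -0.49, where Syvn1 alone differed by 0.33.

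Over all genes, calls moved by over 1.5 times as follows: over the stages from 2793 to 1844 with the mean of 50 counts and 1675 with counts scaled from TPM; in estrus against proestrus from 2064 to 1270 (TPM); in metestrus against estrus from 911 to 410 (TPM) and 299 (2 stages alone); in diestrus against metestrus from 27 to 256 (no filter), 129 (DESeq2) and 0 (TPM, and 2 stages alone); in proestrus against diestrus from 1028 to 670 (mean of 50 counts) and 540 (TPM); in metestrus against proestrus from 519 to 935 (no filter), 156 (TPM) and 42 (2 stages alone); and in diestrus against estrus from 2744 to 1811 (mean of 50 counts) and 1798 (TPM). In diestrus against estrus 28 to 31 of the 37 members lay below 0 with libraries left out.

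Estrus and diestrus share the numbers 3, 4 and 5. Same-numbered libraries did not deviate together (correlations of -0.04, 0.01 and -0.02), and differently numbered ones had correlations of -0.03 to 0.04. Deviations from means of 3 libraries cannot exclude a pairing, so whether the numbers pair the samples was not settled. A fit with the replicate block called 10 members, of which 7 were among the 8, and 2935 genes. At this depth 3 counts correspond to 1.37 to 1.89 CPM, and these limits cover counting error only. Trib3, Chac1 and Derl3 reached 6.29, 5.15 and 5.71 CPM in their highest libraries but were below the filter. Differences in them were therefore not tested in the main fit.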

Other observations

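The estimated counts of Edem1 were split between 2 transcripts in shares that varied by library, also within a stage, which the gene total hides. Whether reads near the 3' end can separate these transcripts was not tested. Edem1-205, the nonsense-mediated decay transcript, was listed at 0 in 6 of 12 libraries, and the protein-coding Edem1-201 was listed at 0 in diestrus 5, where Edem1-205 held 21.5 CPM. In estrus 5 the values were 6.07 CPM for Edem1-201 and 31.5 for Edem1-205, and in estrus 3 they were 43.3 and 0. These transcripts were looked at after the gene's values were seen.

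The ER stress element was also found in the windows of 5 tested genes outside the 40, namely Alg12, Hnrnpa3, Pan2, Spats2l and Zfp57. Of these, 1 was called over the 4 stages, Hnrnpa3, which encodes an RNA-binding protein, with its highest mean in proestrus (edgeR adjusted p = 0.00396).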
